A study of Mus musculus with 32 samples.

Results

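The Slc25 genes encode the mitochondrial solute carriers, a family of related proteins that move nucleotides, phosphate, organic acids, amino acids, acylcarnitines and cofactors across the mitochondrial inner membrane. They were taken as all genes whose symbol in the platform annotation starts with Slc25a and a number, each represented by its brightest probe set over the 32 arrays. The rule gave 46 of 19938 named genes. Of these, 41 were among the 15219 genes bright enough to be tested, while Slc25a2, Slc25a21, Slc25a31, Slc25a53 and Slc25a54 lay below 4.48 log2, the 30th percentile of probe sets, and were not tested.

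Total RNA from the 2 atria of each of 16 mice was hybridised to Affymetrix mouse gene arrays, 1 array per atrium, and the genetic background of all animals combined the C57BL/6 and FVB/N strains. There were 4 animals of each of 4 genotypes: double transgenic mice with dominant negative phosphoinositide 3-kinase and mammalian sterile 20-like kinase 1 (dnPI3K-Mst1), mice with the Mst1 transgene, mice with the dnPI3K transgene, and non-transgenic controls (Ntg). All mice were kept on the same chow and light cycle. The labels give no age or sex, do not name the promoter or species of either transgene and do not say which PI3K subunit was altered, so which cells carried the transgenes is not given in the sources used here. All values below are log2 probe set signals as deposited, an animal's value is the mean of its 2 atria, and the error is the SD over 4 animals or the standard error (SE) of a fitted change.

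In the heart, most ATP is made in mitochondria, and carriers set what enters and leaves them. The ADP/ATP carriers exchange the nucleotides, the phosphate carrier brings in phosphate, and ATP synthase in the membrane joins ADP and phosphate. The oxoglutarate carrier and the aspartate/glutamate carriers form the malate-aspartate shuttle, which brings reducing equivalents from glycolysis into the matrix. The carnitine/acylcarnitine carrier brings in fatty acids for oxidation. Other members serve smaller flows, such as iron, glutathione, pyrimidine nucleotides and S-adenosylmethionine.

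The Mst1 labels were checked on the transgene's gene. Stk4, which encodes Mst1, averaged 8.33 ± 0.11 log2 in dnPI3K-Mst1, 8.25 ± 0.10 in Mst1, 7.61 ± 0.13 in dnPI3K and 7.54 ± 0.11 in Ntg (SD, n = 4), so every animal labelled with the Mst1 transgene lay above every other animal. The dnPI3K labels could not be checked in this way, since the labels do not name the subunit. Pik3ca, which encodes a catalytic subunit of PI3K, averaged 10.27 ± 0.13 log2 in dnPI3K-Mst1, 9.73 ± 0.30 in Mst1, 10.04 ± 0.09 in dnPI3K and 9.12 ± 0.25 in Ntg (SD, n = 4), and the Mst1 animals (9.29 to 9.95) overlapped the dnPI3K animals (9.90 to 10.11). Bmp10, a gene of the mouse right atrium, was higher in the array labelled right in only 3 of the 16 animals (0 of 4 dnPI3K-Mst1, 1 of 4 Mst1, 0 of 4 dnPI3K and 2 of 4 Ntg), so the labelled sides go against this marker in 13 animals and unevenly across genotypes. Every animal is therefore represented by the mean of both arrays, which does not use the labelled side. Array medians spanned 5.51 to 5.68 log2. A low correlation with the remaining arrays (mean under 0.97) was found for 4 arrays, 1 each of Mst1 1466, dnPI3K 1507, dnPI3K 3241 and Ntg 1662. The summed level of 6 atrial myocyte markers (log2 of their added unlogged signals) spanned 15.21 to 15.31 log2 in dnPI3K-Mst1, 15.22 to 15.36 in Mst1, 15.23 to 15.35 in dnPI3K and 15.26 to 15.34 in Ntg. The largest signals in these sums were those of Nppa and Actc1 (13.33 and 13.28 log2 in Ntg), and some single markers were called, as given below.

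Promoter sequences are shown first for 5 carriers, 4 that were lower in the animals with the Mst1 transgene and 1 that was higher in dnPI3K-Mst1. The sequences are from RefSeq (GRCm38.p6), run 5′ to 3′ on the gene's strand and cover 250 bases before to 50 after the start site. Capitals mark matches to the core of the ETS-family motif, CCGGAAG, and in Slc25a3 also to the core of the NRF1 motif. The 5 carriers include all 3 lower carriers and the 1 higher carrier that held an ETS core, so this core is over-represented here. Slc25a12, Slc25a13, Slc25a23, Slc25a24, Slc25a34 and Slc25a43 held no ETS core in their promoters, which are not shown. Slc25a3 lies at chr10:91123918-91124217 on the minus strand, Slc25a4 at chr8:46211013-46211312 on the minus strand, Slc25a20 at chr9:108661886-108662185 on the plus strand, Slc25a11 at chr11:70646990-70647289 on the minus strand, and the first listed start of Slc25a25 at chr2:32451421-32451720 on the minus strand.
Slc25a3: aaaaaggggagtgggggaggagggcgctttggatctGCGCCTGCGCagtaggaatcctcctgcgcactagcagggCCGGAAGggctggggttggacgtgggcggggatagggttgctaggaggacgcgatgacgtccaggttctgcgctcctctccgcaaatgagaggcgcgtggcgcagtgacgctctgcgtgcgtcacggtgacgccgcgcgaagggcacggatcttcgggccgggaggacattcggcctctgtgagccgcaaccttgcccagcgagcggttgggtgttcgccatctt
Slc25a4: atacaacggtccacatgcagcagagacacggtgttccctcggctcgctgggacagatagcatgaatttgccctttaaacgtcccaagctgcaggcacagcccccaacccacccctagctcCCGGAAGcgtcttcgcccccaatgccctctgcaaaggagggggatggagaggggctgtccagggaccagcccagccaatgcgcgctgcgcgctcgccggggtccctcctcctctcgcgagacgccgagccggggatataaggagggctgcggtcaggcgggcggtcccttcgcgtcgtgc
Slc25a20: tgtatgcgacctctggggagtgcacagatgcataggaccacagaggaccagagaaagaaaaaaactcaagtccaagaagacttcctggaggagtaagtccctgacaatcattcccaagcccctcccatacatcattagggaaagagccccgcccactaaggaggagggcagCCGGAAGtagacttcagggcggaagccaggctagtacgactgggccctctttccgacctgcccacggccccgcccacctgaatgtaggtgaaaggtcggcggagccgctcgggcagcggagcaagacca
Slc25a11: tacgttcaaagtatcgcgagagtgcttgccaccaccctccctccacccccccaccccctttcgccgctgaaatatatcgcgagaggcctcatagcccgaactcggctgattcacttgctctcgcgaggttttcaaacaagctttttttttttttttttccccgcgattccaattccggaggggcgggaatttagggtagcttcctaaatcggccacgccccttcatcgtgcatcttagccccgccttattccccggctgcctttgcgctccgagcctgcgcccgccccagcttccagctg
Slc25a25: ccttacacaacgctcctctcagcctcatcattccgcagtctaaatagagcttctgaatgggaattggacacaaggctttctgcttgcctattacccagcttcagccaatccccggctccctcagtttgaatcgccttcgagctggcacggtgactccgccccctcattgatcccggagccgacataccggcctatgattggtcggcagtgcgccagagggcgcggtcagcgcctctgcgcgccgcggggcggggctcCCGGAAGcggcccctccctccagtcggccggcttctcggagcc

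A RefSeq promoter was found for 36 of the 46 carriers. Both strands were searched for the ETS core, the NRF1 core and the core of the motif bound by oestrogen-related receptors, AAGGTCA, and no pair of these motifs overlapped in the promoters shown. The ETS core was present in 3 of 12 carriers that were lower in Mst1 or dnPI3K-Mst1 and had a promoter (25%), in 1 of 5 that were higher (20%), in 2 of 15 other tested carriers (13.3%) and in 16.7% of 11985 tested genes with a promoter. It began at position -175 from the start site in Slc25a3, at position -130 in Slc25a4, at position -79 in Slc25a20 and at position 8 from the first listed start in Slc25a25. The other listed starts of Slc25a25 held none of the 3 cores. The NRF1 core was found in 1 of the 12 lower carriers, Slc25a3, at position -214, against 9.65% of tested genes, and the AAGGTCA core in 1 of the 12, Slc25a34, against 4.07% of tested genes. Over all 32851 promoters of the table the shares were 8.86% for the ETS core, 4.6% for the NRF1 core and 4.72% for AAGGTCA. Slc25a11, whose fall was the largest among the carriers, held none of the 3 cores in this window. These matches describe letters and do not show binding.

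Against Ntg, the phosphate carrier Slc25a3, the ADP/ATP carrier Slc25a4, the shuttle carriers Slc25a11, Slc25a12 and Slc25a13 and the acylcarnitine carrier Slc25a20 were lower in both groups with the Mst1 transgene, the second ADP/ATP carrier Slc25a5 was not called, and 19 tested carriers were not called in any comparison. In dnPI3K-Mst1, 14 of 41 tested carriers were lower (34.1%) and 6 were higher (14.6%) at an adjusted p under 0.05, where 14.2% of all tested genes were lower and 16.4% higher (limma with Benjamini-Hochberg adjustment over all genes). With each array centred on its median these carrier counts were 15 lower and 2 higher, where 2543 of all tested genes were lower and 1898 higher, in place of 2155 and 2503. With quantile normalization they were 16 lower and 3 higher, where 2606 of all tested genes were lower and 2279 higher. In Mst1, 12 carriers were lower (29.3%) and 1 was higher (2.44%), where 14.2% of all tested genes were lower and 12.6% higher. In dnPI3K, 1 carrier was lower (2.44%) and 0 were higher, where 2.75% of all tested genes were lower and 1.29% higher, and 8 of the 41 carriers had an unadjusted p under 0.05 (16.9% of all tested genes). The median log2 change of the carriers was -0.10 in dnPI3K-Mst1, -0.07 in Mst1 and -0.04 in dnPI3K, beside 0.02, -0.0011 and -0.0042 over all tested genes. The falls of some members therefore stood beside a family median close to 0.

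**Figure D1:**
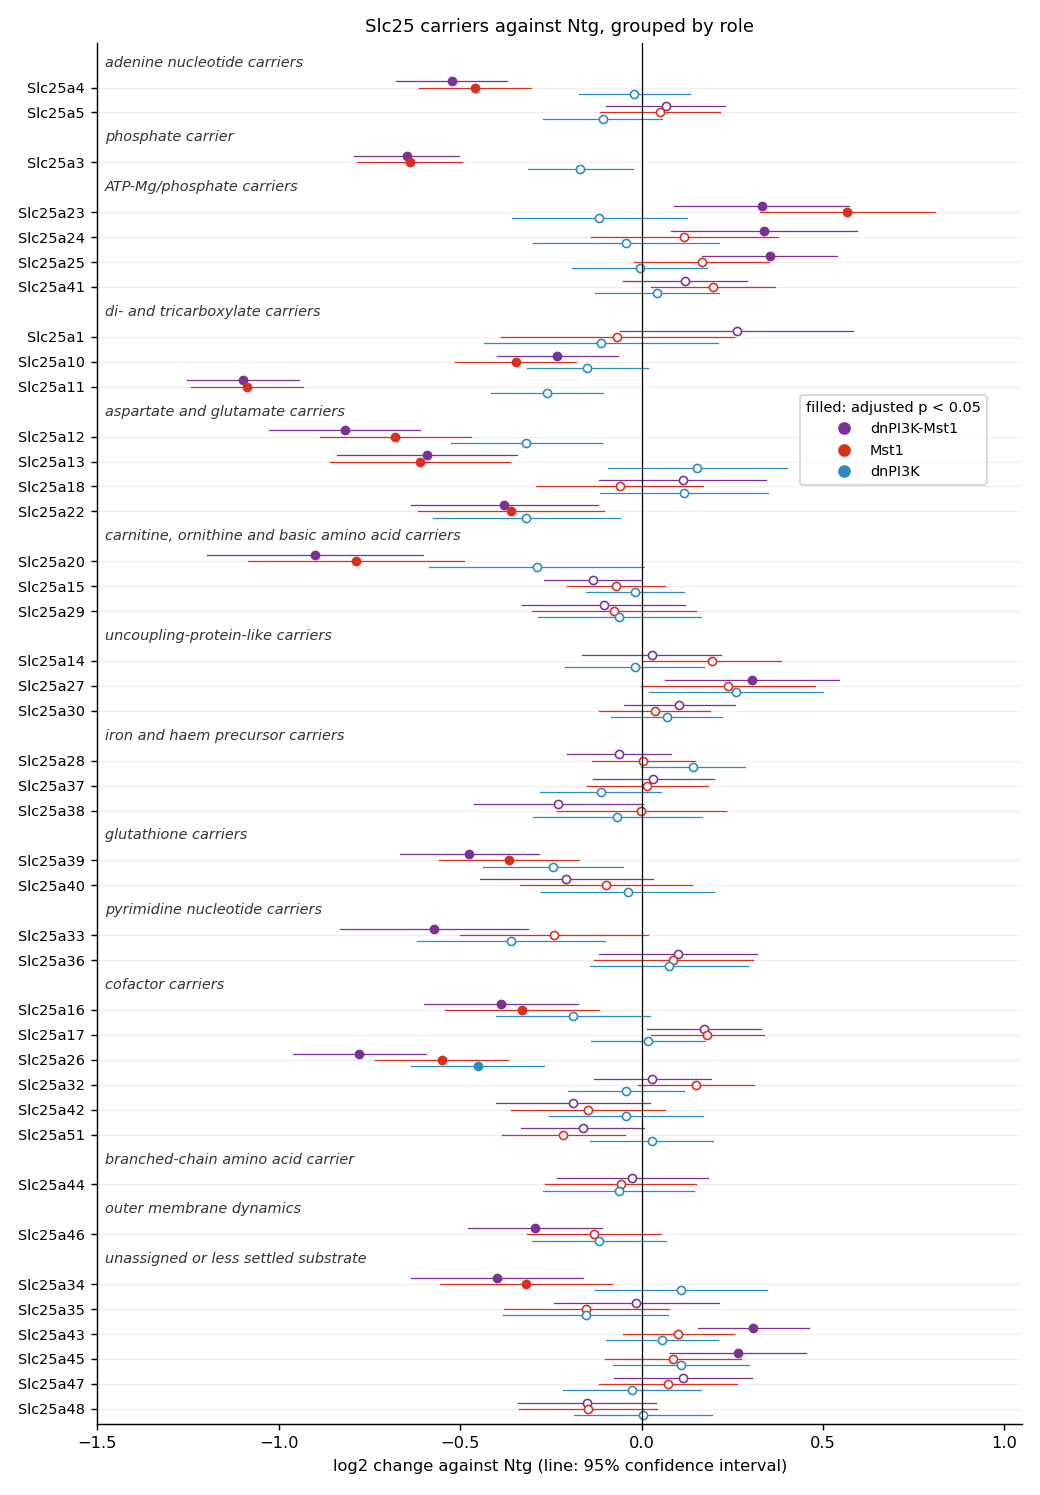
Log2 change against Ntg of the 41 tested Slc25 carriers, grouped by role, in dnPI3K-Mst1, Mst1 and dnPI3K. Points are fitted changes of 4 animals against 4, lines are 95% confidence intervals, and filled points had an adjusted p under 0.05. Slc25a11 lies furthest left, near -1.10 in dnPI3K-Mst1 and -1.09 in Mst1, and the ATP-Mg/phosphate carriers lie to the right of 0 in dnPI3K-Mst1.

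The 12 carriers that were lower in Mst1 (Slc25a3, Slc25a4, Slc25a10, Slc25a11, Slc25a12, Slc25a13, Slc25a16, Slc25a20, Slc25a22, Slc25a26, Slc25a34 and Slc25a39) were all among the 14 that were lower in dnPI3K-Mst1, which are 100% of the first list and 85.7% of the second. The other members of the second list were Slc25a33 and Slc25a46. Both comparisons use the same Ntg animals, so their lists are not independent. All Mst1 animals were below all Ntg animals for 11 carriers (26.8%, beside 14.6% of all tested genes) and above them for 3 (7.32%, beside 11.2%). All dnPI3K-Mst1 animals were below all Ntg animals for 12 carriers (29.3%, beside 15.1%) and above them for 3 (7.32%, beside 18.4%). In dnPI3K these counts were 6 (14.6%, beside 7.7%) and 1 (2.44%, beside 3.71%).

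The oxoglutarate/malate carrier Slc25a11 exchanges oxoglutarate of the matrix for malate of the cytosol and is the first arm of the malate-aspartate shuttle. It was measured at 9.07, 8.93, 9.06 and 9.16 log2 in the dnPI3K-Mst1 animals, 9.09, 9.0, 9.13 and 9.05 in the Mst1 animals, 9.83, 9.82, 9.94 and 9.99 in the dnPI3K animals and 10.08, 10.12, 10.27 and 10.14 in the Ntg animals. All animals with the Mst1 transgene lay below all others, and the dnPI3K animals lay below Ntg without overlap. The change against Ntg was -1.10 ± 0.07 (SE) in dnPI3K-Mst1 and -1.09 ± 0.07 in Mst1, 2.14-fold and 2.12-fold lower (limma, adjusted p = 1.5e-09 and 2.17e-09). In dnPI3K it was -0.26 ± 0.07 with an adjusted p of 0.0517, which misses the threshold.

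The aspartate/glutamate carriers Slc25a12 and Slc25a13 form the other arm of that shuttle, export aspartate from the matrix and are activated by calcium. Slc25a12, the main form in heart, was at 9.17, 9.08, 9.26 and 9.25 log2 in dnPI3K-Mst1, 9.02, 9.32, 9.44 and 9.53 in Mst1, 9.63, 9.63, 9.79 and 9.71 in dnPI3K and 10.01, 9.85, 9.98 and 10.20 in Ntg. Every transgenic animal was below every Ntg animal. Against Ntg it fell by 0.82 ± 0.10 (SE) in dnPI3K-Mst1 (limma, adjusted p = 2.81e-06) and by 0.68 ± 0.10 in Mst1 (adjusted p = 3.1e-05), whereas the -0.32 ± 0.10 of dnPI3K was not called (adjusted p = 0.0816).

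Slc25a13, the form best known from liver, was at 7.99, 7.71, 8.12 and 7.89 log2 in dnPI3K-Mst1, 7.96, 7.82, 7.92 and 7.95 in Mst1, 8.51, 8.70, 8.63 and 8.86 in dnPI3K and 8.29, 8.41, 8.94 and 8.45 in Ntg. Both groups with the Mst1 transgene lay below Ntg without overlap, while the dnPI3K animals lay above 3 of the 4 Ntg animals. The change against Ntg was -0.59 ± 0.12 (SE) in dnPI3K-Mst1 (adjusted p = 0.000673) and -0.61 ± 0.12 in Mst1 (adjusted p = 0.000578), and 0.15 ± 0.12 in dnPI3K (adjusted p = 0.574). Of the 4 aspartate and glutamate carriers, the glutamate carrier Slc25a22 was also lower, with changes of -0.38 ± 0.12 in dnPI3K-Mst1 (adjusted p = 0.0242) and -0.36 ± 0.12 in Mst1 (adjusted p = 0.0355). Its close relative Slc25a18 was not called, with changes of 0.11 and -0.06 in these groups.

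Of the 3 tested di- and tricarboxylate carriers, the dicarboxylate carrier Slc25a10, which exchanges malate or succinate for phosphate, was lower beside Slc25a11. Its change was -0.23 ± 0.08 (SE) in dnPI3K-Mst1 (adjusted p = 0.0321), -0.35 ± 0.08 in Mst1 (adjusted p = 0.00257) and -0.15 ± 0.08 in dnPI3K (adjusted p = 0.366). The citrate carrier Slc25a1, which supplies citrate for fatty acid synthesis, varied most of all carriers within genotypes (pooled SD 0.25 log2, beside a median of 0.13 over the carriers and over all tested genes) and was not called in any comparison.

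The carnitine/acylcarnitine carrier Slc25a20 exchanges acylcarnitines of the cytosol for carnitine of the matrix. It was at 7.76, 7.29, 7.44 and 7.79 log2 in dnPI3K-Mst1, 7.37, 7.72, 7.85 and 7.80 in Mst1, 8.20, 7.83, 8.17 and 8.52 in dnPI3K and 8.37, 8.35, 8.71 and 8.46 in Ntg. The animals with the Mst1 transgene lay below all Ntg animals, and the dnPI3K animals overlapped Ntg and Mst1 but not dnPI3K-Mst1. The change was -0.90 ± 0.14 (SE) in dnPI3K-Mst1, 1.87-fold lower (limma, adjusted p = 5.95e-05), -0.79 ± 0.14 in Mst1 (adjusted p = 0.000293) and -0.29 ± 0.14 in dnPI3K (adjusted p = 0.312). The ornithine carrier Slc25a15 and the basic amino acid carrier Slc25a29 were not called, with changes between -0.13 and -0.07 in these 2 groups with the Mst1 transgene.

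The phosphate carrier Slc25a3 brings phosphate into the matrix for ATP synthase. It was at 9.92, 9.85, 9.92 and 9.89 log2 in dnPI3K-Mst1, 9.75, 9.92, 10.04 and 9.91 in Mst1, 10.42, 10.41, 10.37 and 10.29 in dnPI3K and 10.55, 10.57, 10.54 and 10.53 in Ntg. The Ntg animals were tightly grouped (SD 0.02), and every transgenic animal of each genotype lay below them. Slc25a3 fell by 0.65 ± 0.07 (SE) in dnPI3K-Mst1 (limma, adjusted p = 5.69e-07) and by 0.64 ± 0.07 in Mst1 (adjusted p = 9.07e-07), while the change of -0.17 ± 0.07 in dnPI3K was not called (adjusted p = 0.204).

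Of the ADP/ATP carriers, Slc25a4 was called against Ntg in the groups with the Mst1 transgene and Slc25a5 was not. Slc25a4 is the form of heart and skeletal muscle, Slc25a5 is made in most tissues, and Slc25a31, a germ cell form, was not tested. Slc25a4 was at 12.22, 11.92, 12.14 and 12.19 log2 in dnPI3K-Mst1, 12.08, 12.20, 12.28 and 12.17 in Mst1, 12.66, 12.63, 12.63 and 12.56 in dnPI3K and 12.69, 12.59, 12.53 and 12.75 in Ntg. The animals with the Mst1 transgene lay below the rest without overlap, and dnPI3K and Ntg overlapped. Slc25a4 fell by 0.52 ± 0.07 (SE) in dnPI3K-Mst1 (adjusted p = 1.52e-05) and by 0.46 ± 0.07 in Mst1 (adjusted p = 8.26e-05), against a change of -0.02 ± 0.07 in dnPI3K (adjusted p = 0.93).

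Slc25a5 was at 10.46, 10.51, 10.48 and 10.65 log2 in dnPI3K-Mst1, 10.31, 10.60, 10.63 and 10.50 in Mst1, 10.45, 10.26, 10.33 and 10.37 in dnPI3K and 10.37, 10.51, 10.52 and 10.43 in Ntg. The genotypes overlapped. Its change was 0.07 ± 0.08 (SE) in dnPI3K-Mst1 (95% interval -0.10 to 0.23) and 0.05 ± 0.08 in Mst1 (-0.11 to 0.22), so falls of the size seen for Slc25a4 lie outside both intervals. None of its 3 probe sets was called in any comparison. RefSeq lists pseudogenes of Slc25a5, so its signal can include near-identical copies.

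The balance of the isoforms was compared within animals as the difference of their log2 signals. Slc25a4 minus Slc25a5 spanned 1.41 to 1.76 in dnPI3K-Mst1, 1.60 to 1.77 in Mst1, 2.20 to 2.37 in dnPI3K and 2.01 to 2.32 in Ntg. Both groups with the Mst1 transgene lay below Ntg without overlap, and the mean difference against Ntg was -0.59 in dnPI3K-Mst1, -0.51 in Mst1 and 0.09 in dnPI3K. Two-sided exact permutation tests of 4 animals against 4 gave p = 0.0286 for dnPI3K-Mst1 and for Mst1, the smallest this design allows, and 0.1029 after adjustment over 18 such tests of 6 pairs, so neither passed. Slc25a11 minus Slc25a10 likewise had no overlap (-0.87 in dnPI3K-Mst1 and -0.74 in Mst1 against Ntg, exact permutation p = 0.0286, adjusted 0.1029). Slc25a12 minus Slc25a13 overlapped Ntg in all 3 comparisons (-0.23, -0.07 and -0.47, exact permutation p = 0.2857, 0.6571 and 0.0857 for dnPI3K-Mst1, Mst1 and dnPI3K). The pairs Slc25a39 with Slc25a40 and Slc25a33 with Slc25a36 also overlapped in every comparison (exact permutation p between 0.0857 and 0.3429). Slc25a23 minus Slc25a24 was above Ntg without overlap in Mst1 (0.45, exact permutation p = 0.0286, adjusted 0.1029) and overlapped Ntg in dnPI3K-Mst1 (-0.0058, p = 1) and dnPI3K (-0.07, p = 0.6571).

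**Figure D2:**
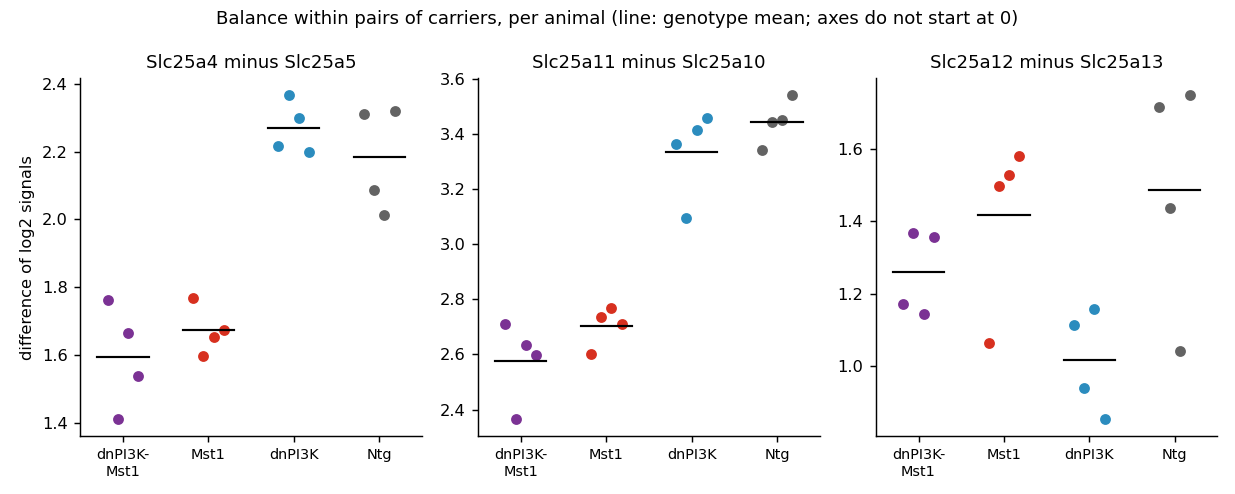
Difference of log2 signals within each animal for 3 pairs of carriers, by genotype. Points are animals (n = 4 per genotype) and lines are genotype means. The Slc25a4 minus Slc25a5 values of dnPI3K-Mst1 (1.41 to 1.76) and Mst1 (1.60 to 1.77) lie below those of Ntg (2.01 to 2.32), whereas Slc25a12 minus Slc25a13 overlaps between genotypes.

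The ATP-Mg/phosphate carriers exchange ATP-Mg for phosphate and change the total adenine nucleotide content of the matrix, and some of them respond to calcium. Of their 4 members, 3 were higher in dnPI3K-Mst1, 1 in Mst1 and 0 in dnPI3K, beside 16.4%, 12.6% and 1.29% of all tested genes. In dnPI3K-Mst1, Slc25a23 and Slc25a24 lost their calls with each array centred on its median, Slc25a24 also with quantile normalization, and Slc25a25 kept its call under both. Slc25a23 was at 8.17, 7.95, 8.42 and 8.47 log2 in dnPI3K-Mst1, 8.18, 8.59, 8.50 and 8.68 in Mst1, 7.85, 7.85, 7.87 and 7.63 in dnPI3K and 8.01, 7.87, 7.84 and 7.96 in Ntg. All Mst1 animals were above all Ntg animals, while dnPI3K-Mst1 overlapped Ntg through 1 animal. The change was 0.33 ± 0.12 (SE) in dnPI3K-Mst1 (limma, adjusted p = 0.0342) and 0.57 ± 0.12 in Mst1, 1.48-fold higher (adjusted p = 0.000872), and -0.12 ± 0.12 in dnPI3K (adjusted p = 0.677). The dnPI3K-Mst1 call was lost in 8 of 29 alternative settings, the Mst1 call in none of them.

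Slc25a25 was at 6.04, 6.16, 6.24 and 6.23 log2 in dnPI3K-Mst1, 5.81, 6.02, 5.92 and 6.15 in Mst1, 5.62, 5.81, 6.00 and 5.78 in dnPI3K and 5.73, 5.86, 5.73 and 5.92 in Ntg. The dnPI3K-Mst1 animals lay above Ntg without overlap, and the single transgenics overlapped Ntg. It rose by 0.35 ± 0.09 (SE) in dnPI3K-Mst1 (adjusted p = 0.00475), and the changes of 0.17 in Mst1 (adjusted p = 0.193) and -0.0052 in dnPI3K (adjusted p = 0.986) were not called.

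Slc25a24 was at 7.53, 7.55, 7.38 and 7.48 log2 in dnPI3K-Mst1, 7.21, 7.15, 7.43 and 7.25 in Mst1, 7.48, 6.76, 7.19 and 6.99 in dnPI3K and 7.44, 7.02, 7.07 and 7.06 in Ntg. Ntg 1301 stood at the level of the double transgenics, and without it the groups would not overlap. Slc25a24 rose by 0.34 ± 0.12 (SE) in dnPI3K-Mst1 (adjusted p = 0.0433), and by 0.43 without Ntg 1301 (adjusted p = 0.0115), but the call was lost in 14 of 29 alternative settings. The fourth member, Slc25a41, was not called (0.12 in dnPI3K-Mst1, adjusted p = 0.3, and 0.20 in Mst1, adjusted p = 0.0843).

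**Figure D3:**
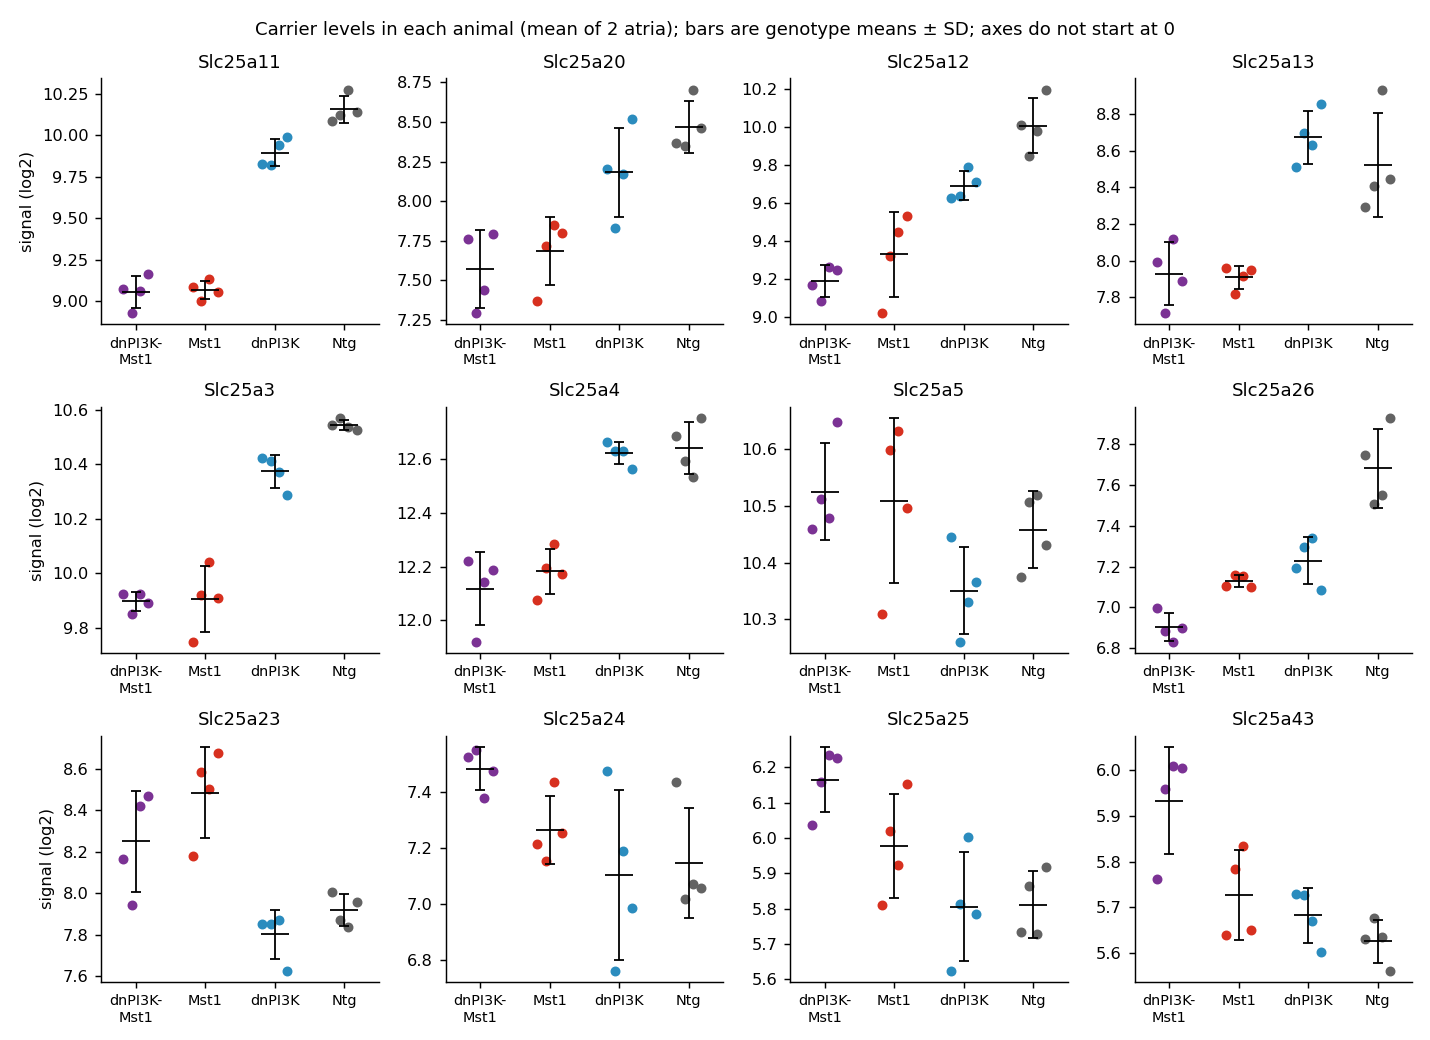
Log2 signal of 12 carriers in each animal, by genotype (points, mean of 2 atria, n = 4 per genotype), with genotype means and SD bars. Slc25a11 separates both groups with the Mst1 transgene (8.93 to 9.16) from Ntg (10.08 to 10.27). Slc25a5 overlaps Ntg in every transgenic genotype, and Slc25a26 is lower than Ntg in all of them.

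Slc25a26 brings S-adenosylmethionine, the methyl donor, into mitochondria, and was the only carrier called in dnPI3K against Ntg. It was at 6.996, 6.88, 6.83 and 6.90 log2 in dnPI3K-Mst1, 7.10, 7.16, 7.15 and 7.10 in Mst1, 7.19, 7.29, 7.34 and 7.08 in dnPI3K and 7.75, 7.50, 7.55 and 7.92 in Ntg. Every transgenic animal was below every Ntg animal, and dnPI3K-Mst1 lay below the other groups without overlap. The change was -0.78 ± 0.09 (SE) in dnPI3K-Mst1, 1.71-fold lower (limma, adjusted p = 1.09e-06), -0.55 ± 0.09 in Mst1 (adjusted p = 7.77e-05) and -0.45 ± 0.09 in dnPI3K (adjusted p = 0.00477). Without the 4 animals that hold the arrays of low correlation the dnPI3K change was -0.41 with an adjusted p of 0.0612.

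Of the 6 tested cofactor carriers, Slc25a16 was also lower, with changes of -0.39 ± 0.10 (SE) in dnPI3K-Mst1 (adjusted p = 0.00631) and -0.33 ± 0.10 in Mst1 (adjusted p = 0.02). The coenzyme A carrier Slc25a42, the folate carrier Slc25a32 and the peroxisomal carrier Slc25a17 were not called in any comparison. The NAD carrier Slc25a51 missed the threshold against Ntg (-0.16 in dnPI3K-Mst1, adjusted p = 0.145, and -0.22 in Mst1, adjusted p = 0.0549) and was lower in Mst1 than in dnPI3K (-0.24 ± 0.08, adjusted p = 0.0357).

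The glutathione carriers Slc25a39 and Slc25a40 import glutathione into the matrix. Slc25a39 was lower, with changes of -0.47 ± 0.09 log2 (SE) in dnPI3K-Mst1 (limma, adjusted p = 0.000498) and -0.36 ± 0.09 in Mst1 (adjusted p = 0.00527). It was not called in dnPI3K (-0.24 ± 0.09, adjusted p = 0.157). The animals of each transgenic genotype lay below Ntg without overlap, in dnPI3K narrowly (highest 9.19, against a lowest Ntg animal of 9.22). Slc25a40 was not called (-0.21 in dnPI3K-Mst1, adjusted p = 0.185). The pyrimidine nucleotide carrier Slc25a33 was lower in dnPI3K-Mst1 (-0.57 ± 0.12, adjusted p = 0.00137), where 1 Ntg animal at 5.62 lay within the dnPI3K-Mst1 range of 5.45 to 5.66, and was not called in Mst1 (-0.24, adjusted p = 0.169) or dnPI3K (-0.36, adjusted p = 0.118). Its relative Slc25a36 was not called with either of its 2 probe sets.

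The iron carriers, which supply mitochondria for haem and iron-sulphur clusters, were not called against Ntg. Slc25a37 (mitoferrin of red cell precursors) was at 6.96, 6.72, 6.90 and 6.90 log2 in dnPI3K-Mst1, 6.96, 6.85, 6.65 and 6.95 in Mst1, 6.62, 6.80, 6.70 and 6.78 in dnPI3K and 6.89, 6.83, 6.81 and 6.82 in Ntg. The groups with the Mst1 transgene overlapped Ntg, the dnPI3K animals lay just below it, and the changes of dnPI3K-Mst1 and Mst1 were 0.03 ± 0.08 (SE) and 0.02 ± 0.08 (95% intervals -0.13 to 0.20 and -0.15 to 0.18). Its relative Slc25a28, the form of most tissues, was lower in dnPI3K-Mst1 than in dnPI3K (-0.20 ± 0.07, adjusted p = 0.0379). The glycine carrier of haem synthesis, Slc25a38, was not called (-0.23 in dnPI3K-Mst1, adjusted p = 0.132).

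Among carriers whose substrate is less settled, Slc25a34 was at 5.54, 5.48, 5.25 and 5.31 log2 in dnPI3K-Mst1, 5.26, 5.53, 5.57 and 5.55 in Mst1, 5.74, 5.90, 5.77 and 6.20 in dnPI3K and 5.75, 5.53, 5.93 and 5.97 in Ntg. The groups with the Mst1 transgene overlapped Ntg only through the Ntg animal at 5.53 and lay below all dnPI3K animals. The change against Ntg was -0.40 ± 0.11 (SE) in dnPI3K-Mst1 (adjusted p = 0.0109) and -0.32 ± 0.11 in Mst1 (adjusted p = 0.043), and the Mst1 call was lost in 15 of 29 alternative settings.

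Slc25a43 was at 5.76, 5.96, 6.01 and 6.00 log2 in dnPI3K-Mst1, 5.64, 5.78, 5.83 and 5.65 in Mst1, 5.73, 5.73, 5.67 and 5.60 in dnPI3K and 5.63, 5.68, 5.64 and 5.56 in Ntg. The dnPI3K-Mst1 animals lay above Ntg without overlap, and it rose by 0.31 ± 0.07 (SE; adjusted p = 0.00303). Slc25a45 rose by 0.27 ± 0.09 in dnPI3K-Mst1 (adjusted p = 0.0295), and Slc25a27, an uncoupling-protein-like carrier of brain, by 0.30 ± 0.11 with an adjusted p that rounds to 0.05. With each array centred on its median, only 2 carriers stayed higher in dnPI3K-Mst1, Slc25a25 and Slc25a43, so Slc25a45 and Slc25a27 lost their calls. Slc25a46, an outer membrane protein of mitochondrial fission and cristae, was lower in dnPI3K-Mst1 (-0.29 ± 0.09, adjusted p = 0.0156) and not called in Mst1 (-0.13, adjusted p = 0.312). The 19 carriers that were not called in any of the 7 comparisons include Slc25a5, Slc25a37, the ornithine carrier Slc25a15 and the branched-chain amino acid carrier Slc25a44.

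The direct comparisons between transgenic groups asked which carriers differed without the Ntg animals. In dnPI3K-Mst1 against dnPI3K, 9 carriers were lower (22%) and 4 higher (9.76%), where 8.8% of all tested genes were lower and 12.8% higher. The changes of the lower carriers included -0.84 ± 0.07 log2 for Slc25a11 (SE; limma, adjusted p = 1.16e-07), -0.75 ± 0.12 for Slc25a13 (adjusted p = 0.000116), -0.61 ± 0.14 for Slc25a20 (adjusted p = 0.00383), -0.51 ± 0.11 for Slc25a34 (adjusted p = 0.00281) and -0.50 ± 0.07 for Slc25a4 (adjusted p = 4.84e-05). Slc25a12, Slc25a3, Slc25a26 and Slc25a28 completed the lower set. The higher set held Slc25a23 (0.45 ± 0.12, adjusted p = 0.00789) and Slc25a24 (0.38 ± 0.12, adjusted p = 0.0321). Its other members were Slc25a25 (0.36 ± 0.09, adjusted p = 0.00638) and Slc25a43 (0.25 ± 0.07, adjusted p = 0.0178). Of these 4, 3 were ATP-Mg/phosphate carriers, but higher carriers were a smaller share (9.76%) than higher genes (12.8%). The 4 became 2 without the 4 arrays of low correlation or with either labelled side alone. They were also 2 without dnPI3K 3241 or without dnPI3K-Mst1 1650, and spanned 2 to 6 over all alternatives.

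In Mst1 against dnPI3K, 8 carriers were lower (19.5%) and 1 was higher (2.44%), where 10% of all tested genes were lower and 11.8% higher. This is the test of whether the single transgenes differed. Slc25a11 (-0.83 ± 0.07, adjusted p = 1.26e-07), Slc25a13 (-0.77 ± 0.12, adjusted p = 8.55e-05), Slc25a3 (-0.47 ± 0.07, adjusted p = 5.17e-05) and Slc25a4 (-0.44 ± 0.07, adjusted p = 0.00019) were lower in Mst1, as were Slc25a12, Slc25a20, Slc25a34 and Slc25a51, and Slc25a23 was higher (0.68 ± 0.12, adjusted p = 0.000201). Slc25a26, which was lower than Ntg in both, was not called between them.

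In dnPI3K-Mst1 against Mst1, 0 carriers were called in either direction by limma, where 0.848% of all tested genes were lower and 2.65% higher. At an unadjusted p under 0.05 there were 5 carriers, beside 17.1% of all tested genes, and the smallest adjusted p, 0.131, belonged to Slc25a43. For 3 carriers, Slc25a14, Slc25a26 and Slc25a33, all dnPI3K-Mst1 animals lay below all Mst1 animals (7.32%, beside 3.26% of all tested genes). The non-additivity term, which asks whether the changes of the single transgenes add up on the log2 scale, called 0 carriers (0.368% of all tested genes higher and 0.145% lower). It had 3 carriers at an unadjusted p under 0.05 (10.9% of all tested genes), and its smallest adjusted p was 0.373, for Slc25a11 (0.25 ± 0.10).

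Beside other mitochondrial genes the carriers were mixed. Of 80 tested subunits of the respiratory chain and ATP synthase, 75 were lower and 0 higher in dnPI3K-Mst1, 74 lower and 0 higher in Mst1, and 12 lower and 0 higher in dnPI3K, with median log2 changes of -0.83, -0.61 and -0.26. Of 77 mitochondrial ribosomal proteins, 66 were lower in dnPI3K-Mst1, 50 in Mst1 and 16 in dnPI3K, with medians of -0.49, -0.32 and -0.22, and 1 was higher, in Mst1. The carriers had 14, 12 and 1 of 41 lower and medians of -0.10, -0.07 and -0.04. The difference between the families was not tested.

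**Figure D4:**
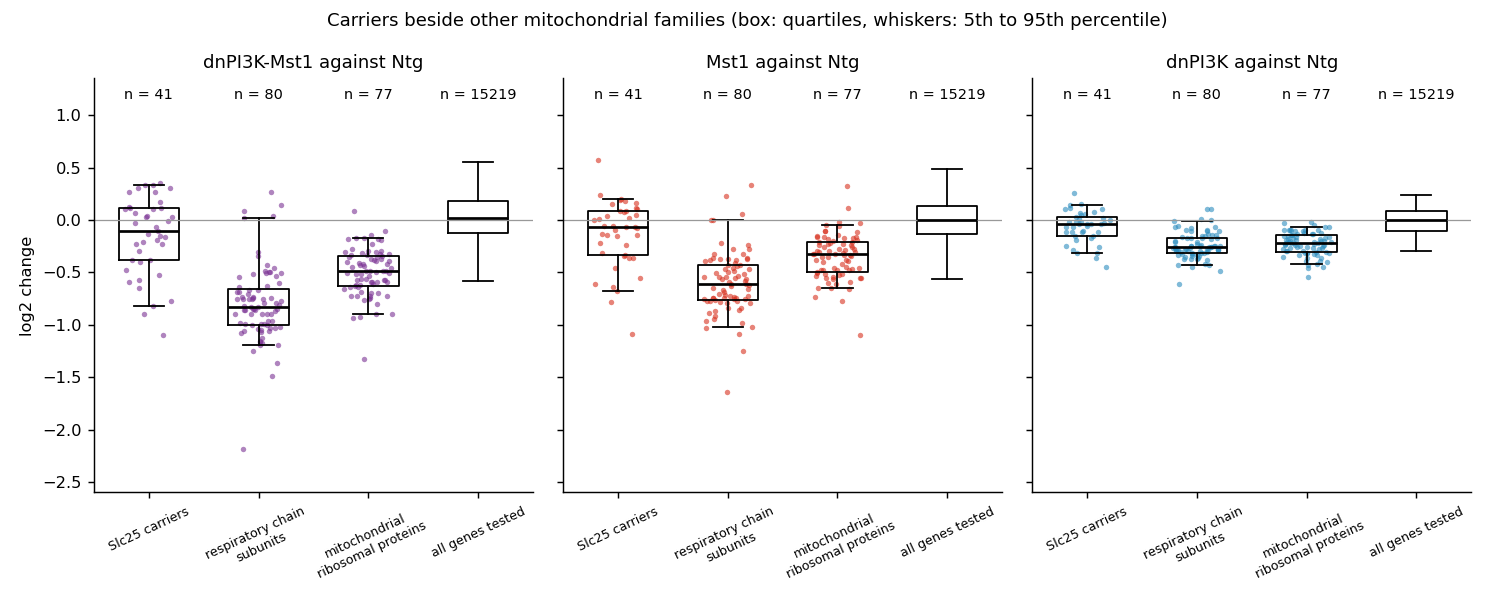
Log2 change against Ntg of the 41 Slc25 carriers, 80 respiratory chain subunits, 77 mitochondrial ribosomal proteins and all 15219 tested genes, in dnPI3K-Mst1, Mst1 and dnPI3K. Points are genes (drawn for the 3 families), boxes show quartiles and whiskers the 5th to 95th percentile. The carrier medians (-0.10, -0.07 and -0.04) lie nearer to 0 than those of the respiratory chain (-0.83, -0.61 and -0.26).

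Genes that work with the carriers were taken as lists of pathway partners, whose counts of lower genes stand beside 14.2% of all tested genes in dnPI3K-Mst1, 14.2% in Mst1 and 2.75% in dnPI3K, and those of higher genes beside 16.4%, 12.6% and 1.29%. All 4 enzymes of the malate-aspartate shuttle were lower in dnPI3K-Mst1 and in Mst1, and 2 of 4 in dnPI3K. The aminotransferase Got1 changed by -1.06 ± 0.13 log2 (SE) in dnPI3K-Mst1 (limma, adjusted p = 2.16e-06) and -0.98 ± 0.13 in Mst1 (adjusted p = 7.29e-06), and its mitochondrial form Got2 by -0.87 ± 0.09, -0.83 ± 0.09 and, in dnPI3K, -0.38 ± 0.09 (adjusted p = 0.0281). In both groups with the Mst1 transgene Slc25a11, Slc25a12 and Slc25a13 were lower as well. In dnPI3K none of these 3 carriers was called, but Slc25a11 missed the threshold narrowly. For Slc25a11 and Slc25a12 all dnPI3K animals lay below all Ntg animals. Whether the shuttle enzymes and carriers differed in dnPI3K was not tested.

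Of 5 tested carnitine shuttle genes, 3 were lower in dnPI3K-Mst1 and in Mst1 and 0 in dnPI3K, and 1, Cpt1c, was higher in dnPI3K-Mst1. Cpt2, which turns acylcarnitine back into acyl-CoA, fell by 1.13 ± 0.13 in dnPI3K-Mst1 (adjusted p = 1.16e-06) and by 1.10 ± 0.13 in Mst1 (adjusted p = 2.15e-06), and the carnitine acetyltransferase Crat by 0.93 ± 0.10 and 0.89 ± 0.10. All 4 tested genes of the pyruvate carrier and the outer membrane channels were lower in dnPI3K-Mst1 and Mst1. The pyruvate carrier subunit Mpc1 changed by -0.82 ± 0.16 in dnPI3K-Mst1 (adjusted p = 0.000635) and -0.67 ± 0.16 in Mst1 (adjusted p = 0.0041). The channel Vdac1 changed by -0.90 ± 0.08, -0.80 ± 0.08 and, in dnPI3K, -0.37 ± 0.08 (adjusted p = 0.017).

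Carrier family members with other symbols gave 2 lower of 4 tested in dnPI3K-Mst1 and in Mst1 and 0 in dnPI3K. The uncoupling protein Ucp3 changed by -1.38 ± 0.32 in dnPI3K-Mst1 (adjusted p = 0.00223) and -1.39 ± 0.32 in Mst1 (adjusted p = 0.00228), while Mtch1, an outer membrane relative, was higher in dnPI3K-Mst1 (0.29 ± 0.09, adjusted p = 0.015). Of 11 tested genes that import carriers into mitochondria, 5 were lower in dnPI3K-Mst1, 3 in Mst1 and 0 in dnPI3K, among them Timm8b (-0.69 and -0.43) and Tomm40 (-0.37 and -0.31). Citrate use gave 2 lower of 3 tested in both groups with the Mst1 transgene (Cs, citrate synthase, -0.69 and -0.70), iron and haem synthesis 3 and 2 of 4 (Alas1, the first enzyme of haem synthesis, -0.83 and -0.85), and ornithine and proline metabolism 2 and 2 of 4 (Oat, -0.33 and -0.38). Glutathione genes gave 0 lower of 6 in both, and 1, Gclm, higher in dnPI3K-Mst1 (0.26 ± 0.09, adjusted p = 0.0385). In dnPI3K, 1 iron and haem gene, Fech, was lower (-0.35 ± 0.10, adjusted p = 0.047) and 0 genes of the citrate, glutathione or ornithine lists were called.

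The samples are whole atria, in which fewer cells of a type and less RNA per cell cannot be told apart. Some markers of other cells were called against Ntg. Their counts of lower genes stand beside 14.2% of all tested genes in dnPI3K-Mst1, 14.2% in Mst1 and 2.75% in dnPI3K. Counts of higher genes stand beside 16.4%, 12.6% and 1.29%. Each sum below is the log2 of the added unlogged signals of all markers named on the array, also those below the filter. The largest signals therefore weigh most in it. Of 5 endothelial markers, 1 was lower in dnPI3K-Mst1 and 4 in Mst1, and their summed level spanned 11.40 to 11.70 log2 in dnPI3K-Mst1, 11.04 to 11.35 in Mst1, 11.56 to 11.81 in dnPI3K and 11.65 to 11.90 in Ntg. Of 5 fibroblast markers, 4 were higher in dnPI3K-Mst1, 2 in Mst1 and 2 in dnPI3K, with sums of 13.26 to 13.45, 13.13 to 13.30 and 13.03 to 13.21, against 12.75 to 13.14 in Ntg. The largest signal in these sums was that of Dcn (12.49 log2 in Ntg, the others 8.46 to 9.59). Dcn was called in dnPI3K-Mst1 and Mst1 but not in dnPI3K. Of 5 macrophage markers, 2 were higher in dnPI3K-Mst1 (sum 10.47 to 11.17, against 10.12 to 10.67 in Ntg) and 0 were called in Mst1 or dnPI3K. Of 6 atrial myocyte markers, 3 (Sln, Myl7 and Myl4) were lower and 1 (Nppa) higher in dnPI3K-Mst1, and 2 (Sln and Myl7) were lower in Mst1. Of 3 tested adipocyte markers, 1, Plin1, was lower in Mst1 (-0.665, limma, adjusted p = 0.0185), and 0 were called in dnPI3K-Mst1 or dnPI3K. Adipocyte markers summed to 7.14 to 8.14 in dnPI3K-Mst1, 6.99 to 7.46 in Mst1, 7.18 to 7.53 in dnPI3K and 7.27 to 8.46 in Ntg, with Adipoq and Lep below the filter, and Ntg 1301 held the highest sum. Of 4 tested skeletal muscle markers, 1 (Acta1) was higher and 1 (Atp2a1) lower in dnPI3K-Mst1 and in Mst1, and 2 were lower in dnPI3K. The list thus had no common direction in the groups with the Mst1 transgene. The sums, which include Myh4 below the filter, were 9.31 to 10.08 in dnPI3K-Mst1, 9.83 to 10.06 in Mst1 and 8.99 to 9.27 in dnPI3K, against 9.56 to 9.77 in Ntg. The dnPI3K sums lay below Ntg without overlap, and their largest signal was that of Myl1 (9.21 log2 in Ntg). In dnPI3K, Myl1 changed by -0.73 (limma, adjusted p = 0.0181) and Atp2a1 by -0.53 (adjusted p = 0.00126), while Acta1 and Tnnc2 were not called. Of 2 tested erythroid markers, Alas2 was lower in dnPI3K-Mst1, and the sums were 6.49 to 7.16 in dnPI3K-Mst1, 6.81 to 8.80 in Mst1, 6.96 to 7.40 in dnPI3K and 7.13 to 7.97 in Ntg. Neither of 2 tested brown adipocyte markers was called. Their sums with Elovl3, which was below the filter, were 6.79 to 8.32 in dnPI3K-Mst1, 6.88 to 6.98 in Mst1, 6.65 to 7.33 in dnPI3K and 6.87 to 7.97 in Ntg. Ntg 1301 had the highest sum of the Ntg animals for 7 of the 8 marker lists. The part of these cells in the carrier changes was not tested.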

How the data were processed

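RNA (100 ng per array) from 2 atria of each of 16 mice was measured on 32 arrays. The authors deposited log2 probe set signals, made with Affymetrix Expression Console and PLIER per the submitters' processing notes (versions, scaling and background correction are not given in the sources used here). The sources do not state the log base, and base 2 was inferred because values lay between 1.16 and 14.08. No further scaling was applied. Levels of different probe sets were compared only to pick the brightest and to name the largest signals in marker sums. Differences between 2 carriers were compared only across genotypes.

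Of 35512 probe sets, 21789 had 1 gene symbol in the platform annotation and were used, 1621 had several and 12102 none. A gene was represented by its brightest probe set, and genes under the 30th percentile (4.48 log2) were left out. Each animal entered as the average of its 2 arrays, fitted with limma 3.58.1 (lmFit, eBayes with a trend, R 4.3.3) over 4 genotypes in 1 fit with 7 contrasts, two-sided, with Benjamini-Hochberg adjustment over 15219 genes and a threshold of 0.05. Deviations of an animal's 2 arrays correlated between -0.42 and 0.44 (median 0.05; 7 of 16 animals over 0.1). The labels do not say whether animals shared a litter or day. The procedure was tested on simulated data. Within-animal differences of carrier pairs were compared with exact permutation tests. No paired analysis across genotypes was possible because each animal number belongs to 1 genotype; the animal entered as a replicate block over 32 arrays as an alternative.

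The members, gene lists, pairs, motifs and tests were chosen with earlier results of these data known. Values per animal are given for up to 6 called carriers with the largest fall and 4 with the largest rise in each comparison and for Slc25a3, Slc25a4, Slc25a5, Slc25a11, Slc25a12, Slc25a13, Slc25a20, Slc25a25 and Slc25a37; others are given as changes. Partner genes are given by counts with up to 2 called examples a list; Cpt1c, the only one of its list that was higher, was chosen after its values were seen. Alternatives covered scaling, filter, probe sets, moderation, array weights, arrays left out, labelled side, the genotypes fitted and single animals left out.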

Additional observations from a re-analysis of the deposited data

Results flagged for a closer look

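Of 56 groups of 4 animals checked over 14 named carriers, 3 held an animal far from the rest; chance alone gives about 1 in 20 such groups. Slc25a23 was at 7.628 log2 in dnPI3K 3241, below the other dnPI3K animals at 7.853 to 7.874; this animal also holds an array of low correlation. Slc25a24 was at 7.437 log2 in Ntg 1301, above the other Ntg animals at 7.018 to 7.069, and this animal had the highest sum of its group for 7 of 8 cell type marker lists, among them adipocyte (8.455 log2), endothelial, fibroblast and macrophage markers. Slc25a34 was at 5.262 log2 in Mst1 1466, below the other Mst1 animals at 5.533 to 5.566; this animal holds the array of the lowest correlation, and without it the Slc25a34 change against Ntg was -0.25 with an adjusted p of 0.12 (limma). The part of these features in the 3 values was not tested.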

How the results depend on the processing

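The numbers of lower carriers against Ntg, 14 in dnPI3K-Mst1 and 12 in Mst1, stayed within 1.5 times their size in every alternative except the arrays labelled right alone (9 and 7); leaving out single animals gave 12 to 14 and 10 to 13. Fits on 1 labelled side use 1 array per animal in place of 2, and the labelled sides go against Bmp10 in 13 of 16 animals. Slc25a3, Slc25a11, Slc25a12, Slc25a13, Slc25a20 and Slc25a26 kept their calls in both comparisons in all 29 alternatives, and Slc25a4 lost its call in Mst1 with the arrays labelled right alone (adjusted p = 0.0535). The carriers higher in dnPI3K-Mst1 against Ntg (6) became 2 with each array centred on its median or with arrays labelled left alone, and 3 with quantile normalization, arrays labelled right alone or without the 4 animals of low correlation, an alternative chosen after seeing the data; they were 2 without Ntg 1657 or Ntg 1662 and 3 without dnPI3K-Mst1 1509 or 1650 (range 2 to 6). The carrier higher in Mst1 against Ntg became 2 with the animal as a replicate block over 32 arrays, 2 without the 4 arrays of low correlation and 4 with array weights, and 1 to 2 without single animals. The carrier lower in dnPI3K against Ntg became 2 with centring, a stricter filter, no trend, without the 4 arrays or with 2 genotypes alone, 3 with array weights, 0 with arrays labelled left alone or without the 4 animals, and 1 to 3 without single animals (3 without Mst1 1466, 2 without Ntg 1657 or dnPI3K-Mst1 1647).

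For dnPI3K-Mst1 against Mst1, array weights gave 1 higher and 1 lower carrier, the 2 genotypes alone 1 lower, and single animals 0 to 1 lower (1 without Ntg 1657). For dnPI3K-Mst1 against dnPI3K, the 4 higher carriers became 2 without the 4 arrays or with either labelled side alone, and 2 to 5 without single animals (2 without dnPI3K 3241 or dnPI3K-Mst1 1650). For Mst1 against dnPI3K, the higher carrier became 4 with array weights, 2 without the 4 arrays, without the 4 animals or with arrays labelled right alone, and 1 to 3 without single animals (3 without Mst1 1466); the 8 lower became 4 and 5 with arrays labelled left or right alone and 5 without the 4 animals. No result reversed. The replicate block moved no other carrier count by over 1.5 times, and under it Slc25a34 lost its calls in dnPI3K-Mst1 and Mst1 against Ntg.

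Over all genes, calls of dnPI3K-Mst1 against Ntg (2503 higher, 2155 lower) became 1898 and 2543 with centring and 2279 and 2606 with quantile normalization, those of dnPI3K (197 and 419) became 146 and 540 with centring, and those of dnPI3K-Mst1 against Mst1 (403 and 129) became 364 and 203 with quantile normalization. Over all alternatives, these counts spanned 1141 to 3273 and 1276 to 2606 in dnPI3K-Mst1, 745 to 3143 and 1384 to 2646 in Mst1, and 29 to 317 and 76 to 696 in dnPI3K. The causes were not tested. Precision is limited by 4 animals a group, whose carriers had a median within-genotype SD of 0.13 log2, and a p-value here covers only the variation among these animals.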
